A study of Mus musculus with 2 samples.

Results

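The T helper 2 (Th2) signature was described through 6 genes: the transcription factor genes Gata3 and Stat6, the type 2 cytokine genes Il4, Il5 and Il13, and Ptgdr2, which encodes the prostaglandin D2 receptor CRTH2. They were taken by gene symbol, all 6 had a row, and the table listed 17002 genes in all. The libraries came from Th17 cells, grown for 3 days under Th17-polarising conditions from naive CD4+ T cells of spleen, from C57BL/6 mice that were either wild type or lncRNA-GM-/-, which lack the long non-coding RNA lncRNA-GM throughout. Each genotype was represented by 1 library. Whether cells of several mice were pooled, the age of the mice and the cytokines and antibodies of the culture are not given in the sources used here.

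Th2 cells drive responses against helminths and allergens. Interleukin-4 binds a receptor made of IL-4Rα and the common γ chain, Janus kinases on that receptor phosphorylate STAT6, and STAT6 induces Gata3, which opens the locus that holds Il4, Il13 and Il5. CRTH2 marks Th2 cells and draws them towards prostaglandin D2. STAT6 is switched on by phosphorylation, which RNA sequencing does not measure.

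Levels are in FPKM, the fragments of a transcript divided by its length and by the fragments mapped in that library. Read numbers were reconstructed from the authors' deposited p-values, and they put the depth near 19.3 M fragments for the wild type and 19.0 M for the knockout. With 1 library per genotype there was no replicate spread and no test, and every difference describes these 2 libraries. Intervals are 95% exact (Clopper-Pearson) intervals of the read ratio. Without molecular identifiers, reads need not come from separate molecules, so intervals and limits cover counting error only. A gene was counted as higher or lower at 1.5-fold on FPKM + 1 if it reached 1 FPKM in at least 1 library. The T cell markers Cd3e and Cd4 were abundant in both libraries, at 177 and 186 FPKM and at 174 and 213 FPKM (wild type first, here and below). The CD8 genes Cd8a and Cd8b1 were also abundant, at 98.1 and 55.7 FPKM and at 212 and 126 FPKM. The level of the deleted RNA was not analysed here, and the genotype labels were therefore taken as given.

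The 2 cytokine genes Il13 and Il4 were higher in the knockout library, whereas Gata3 and Stat6 were near equal and Il5 and Ptgdr2 were too low to read. Il13 stood at 1.68 FPKM in the wild type against 6.19 FPKM in the knockout. Il4 was at 1.59 FPKM in the knockout and listed at 0 in the wild-type library. Across all 10998 genes tested, 2.71% were higher by 1.5-fold or more, 1.01% were higher by 2-fold or more, and 5.19% were lower by 1.5-fold or more. Il13 and Il4 were past 2-fold on FPKM + 1, and no gene of the 4 measured was 1.5-fold lower. Il5 and Ptgdr2, under 1 FPKM in both libraries, could not be counted in either direction. Il4 reached the minimum of 1 FPKM only through the knockout library, so its place among the higher genes was fixed by that minimum.

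**Figure D1:**
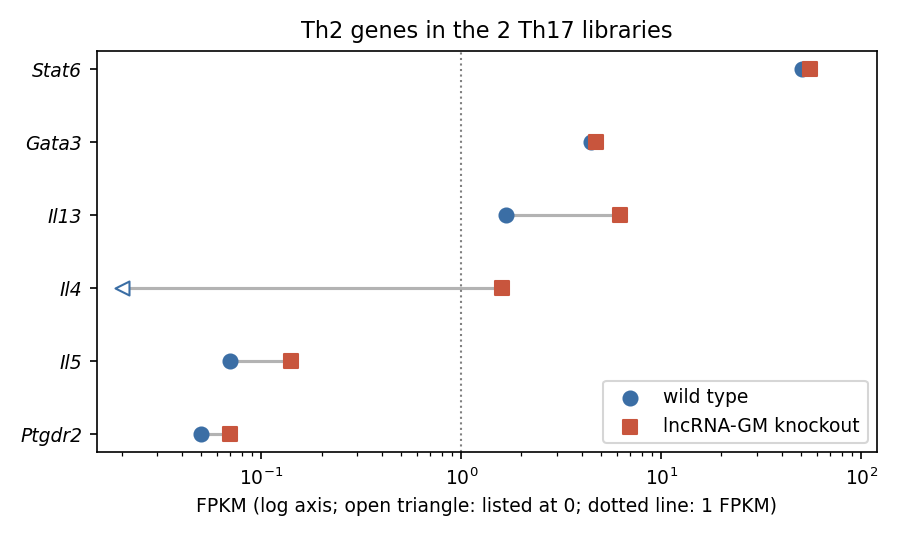
FPKM (log axis) of the 6 Th2 genes in the wild-type library (circles) and the lncRNA-GM knockout library (squares), 1 library each. The open triangle marks Il4, listed at 0 in the wild type, and Il5 and Ptgdr2 lie left of 1 FPKM in both libraries.

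Gata3, the transcription factor that defines the Th2 lineage and is also needed for early T cell development, was at 4.45 FPKM in the wild type against 4.73 FPKM in the knockout. The values rested on 280 and 293 reads, and the read ratio of knockout to wild type was 1.06 (interval 0.90 to 1.26), which includes equality. Gata3 lay near the middle of the table, with 49.2% of rows at a lower level in the wild type and 50.7% in the knockout. The gene of T-bet, the Th1 factor, is Tbx21, and it was at 9.34 and 5.14 FPKM, or 2.10 and 1.09 times the Gata3 level. Gata3 was thus below Tbx21 in the wild type and near it in the knockout. No interval was computed for either quotient. The gene lies at chr2:9857078-9887953 on GRCm38.p6. Its exons overlap the annotated non-coding genes 9230102O04Rik on the same strand, over 77 bases, and Gm13256 on the opposite strand, over 155 bases.

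Stat6, the signal transducer of the IL-4 receptor, was the most abundant of the 6 genes, at 50.9 FPKM in the wild type against 55.7 FPKM in the knockout. About 3713 and 4001 reads gave a ratio of 1.10 (interval 1.05 to 1.15). That interval lies above 1, so counting error alone is smaller than the difference, while the size is far under 1.5-fold. Stat3, the transducer that IL-6 and IL-23 use in Th17 cells, was at 118 and 106 FPKM, or 2.32 times Stat6 in the wild type and 1.91 times in the knockout. Stat6 lies at chr10:127642955-127660987. It shares 40 exonic bases with Nab2 on the opposite strand, which was at 26.4 and 31.1 FPKM.

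Il13 encodes a cytokine that acts mainly on epithelium and macrophages and drives mucus production. It was supported by 39 reads in the wild-type library and 141 in the knockout library. The read ratio was 3.67 (interval 2.56 to 5.38), and the fold on FPKM + 1 was 2.68, since a pseudocount understates the change of a low gene. In the order of all rows Il13 moved from above 40.2% of genes to above 54.4%. The level remained small beside the Th17 cytokines: Il17a, at 392 and 178 FPKM, was 234 times Il13 in the wild type and 28.8 times in the knockout. Both terms of that quotient differed between the libraries, with Il17a lower and Il13 higher in the knockout.

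Il4, the cytokine that instructs the Th2 fate and class switching to IgE, had 0 reads in the wild-type library and 17 in the knockout library. A count of 0 allows up to 3 reads, or 0.276 FPKM, in the wild type. By the exact interval of the read ratio, which has no upper limit here, Il4 was at least 4.19-fold higher in the knockout. A fold on FPKM + 1 depends on the pseudocount and is no bound. In the knockout library Il13 was 3.89 times as abundant as Il4 per length of transcript. Il4 therefore remained a low transcript where it was detected, below Gata3 in level.

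Il5, which encodes the growth factor of eosinophils, was at 0.07 FPKM in the wild type against 0.14 FPKM in the knockout. These values stand for 2 and 4 reads, with a ratio of 2.03 and an interval from 0.29 to 22.5, so neither a higher nor a lower level was detectable at this depth. A single read was worth 0.035 FPKM. Exons of Il5 overlap Gm12214 on the opposite strand over 417 bases. Ptgdr2 was at 0.05 and 0.07 FPKM, from 2 reads in each library, and no fold is given. Exons of Ptgdr2 share 1031 bases with Ccdc86 on the opposite strand, which was at 5.89 and 8.27 FPKM. Strandedness of the libraries is not given in the sources used here, so reads of overlapping genes cannot be told apart. Il4 and Il13 overlap no other annotated exon, and no near-identical copy of any of the 6 genes was found.

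**Figure D2:**
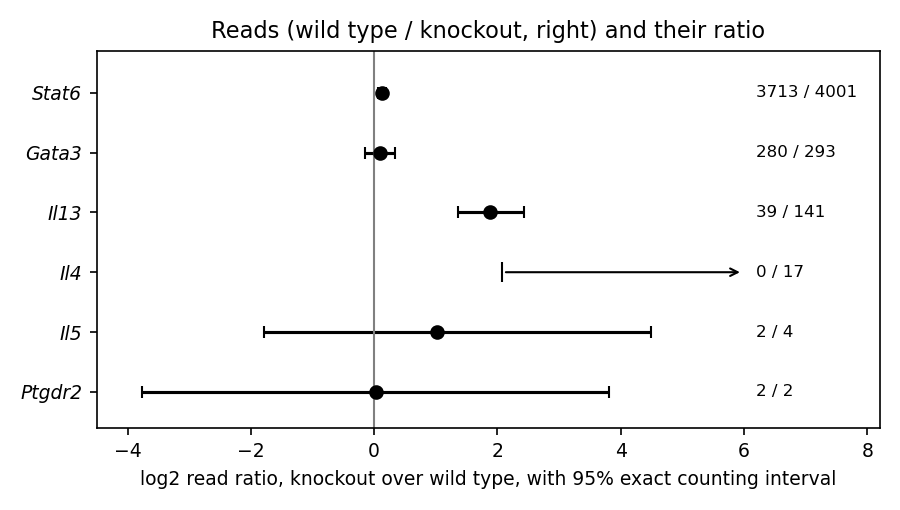
Log2 ratio of reads, knockout over wild type and scaled to depth, with 95% exact counting intervals; the reads of each library stand at the right. For Il4, with 0 reads in the wild type, the arrow starts at the lower limit of its interval (log2 2.07); the bars of Il5 and Ptgdr2 span 0, those of Il13 do not.

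The 3 cytokine genes neighbour each other on chromosome 11, where Rad50, the gene of a DNA repair protein, separates Il13 from Il5 and holds the known Th2 locus control region. On GRCm38.p6, Il4 lies at chr11:53612460-53618665, Il13 at chr11:53631323-53634702 and Il5 at chr11:53720794-53725103. Beside these 3 genes, 12 protein-coding genes within 250 kb had values, and 8 reached 1 FPKM. Of those 8, 0 were 1.5-fold higher and 0 were 1.5-fold lower, with log2 ratios from −0.35 to 0.55 and a median of 0.15, against −0.03 over all genes tested.

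Rad50 was at 12.4 and 11.7 FPKM (log2 −0.07), and Kif3a, a kinesin gene on the far side of Il4, was at 4.51 and 5.10 FPKM (log2 0.15). Irf1, an interferon-induced transcription factor gene beyond Il5, had the lowest value, at 60.9 and 47.7 FPKM. Septin8, a cytoskeletal GTPase gene, had the highest, at 3.69 and 5.87 FPKM. Uqcrq, a subunit of respiratory complex III, was at 75.2 and 99.8 FPKM. Aff4, Slc22a5 and Slc22a21 had log2 ratios of 0.21, 0.16 and −0.05. By reads alone, with no pseudocount, the ratio of Septin8 was 1.57 (interval 1.37 to 1.80). Leap2, Shroom1, Sowaha and Gdf9 stayed under 1 FPKM, and Gdf9, a growth factor gene, had 5 and 20 reads (ratio 4.07, interval 1.48 to 13.9).

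**Figure D3:**
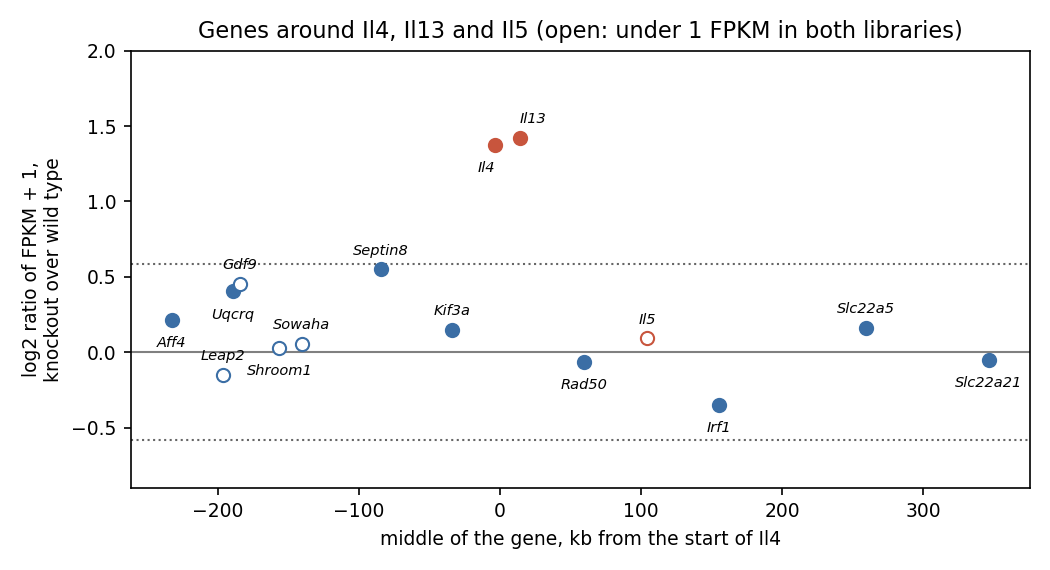
Log2 ratio of knockout to wild type (FPKM + 1) against distance in kb from the start of Il4 for the genes within 250 kb of Il4, Il13 or Il5. Il4 (1.37) and Il13 (1.42) lie above the dotted 1.5-fold line, while the 8 other genes with at least 1 FPKM lie between −0.35 and 0.55.

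The bases before the start sites of the cytokine genes are shown because Il4 and Il13 moved the same way in these libraries and Il5 could not be read. Each run holds the 250 bases before the start from RefSeq (GRCm38.p6), 5′ to 3′ on the gene's strand. Capitals mark GATA, the core that GATA factors bind, and GGAAA, the core that NFAT factors bind, on either strand (TATC and TTTCC are the reverse strand). The regions are chr11:53618666-53618915 on the minus strand for Il4, chr11:53634703-53634952 on the minus strand for Il13 and chr11:53720544-53720793 on the plus strand for Il5.
Il4: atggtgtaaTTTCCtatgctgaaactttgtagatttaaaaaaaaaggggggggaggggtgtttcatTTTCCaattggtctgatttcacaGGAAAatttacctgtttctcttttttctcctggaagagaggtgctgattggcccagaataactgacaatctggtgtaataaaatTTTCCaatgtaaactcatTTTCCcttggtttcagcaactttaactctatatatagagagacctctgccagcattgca
Il13: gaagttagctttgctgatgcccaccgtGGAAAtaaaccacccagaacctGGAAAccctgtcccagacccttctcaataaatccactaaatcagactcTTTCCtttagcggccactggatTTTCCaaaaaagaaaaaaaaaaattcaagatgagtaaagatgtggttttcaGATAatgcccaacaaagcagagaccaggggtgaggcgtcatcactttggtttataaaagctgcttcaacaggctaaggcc
Il5: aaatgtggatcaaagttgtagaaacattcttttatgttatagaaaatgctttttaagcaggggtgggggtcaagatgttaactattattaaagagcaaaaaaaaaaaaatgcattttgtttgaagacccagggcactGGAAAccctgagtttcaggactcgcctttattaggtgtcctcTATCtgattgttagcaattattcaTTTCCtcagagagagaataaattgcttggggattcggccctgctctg

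The Il4 window held 5 GGAAA matches, at 241, 184, 161, 77 and 59 bases before the start, the Il13 window 4 and the Il5 window 2. Of 32851 windows of the same length, 55.6% held at least 1 such match, 1.59% at least 4 and 0.39% at least 5. G and C made up 37.6%, 43.2% and 37.6% of the Il4, Il13 and Il5 windows, against a median of 52.4% over all windows. The shares were not matched for base content, so they do not show whether the match counts are unusual. GATA was matched 0 times before this Il4 start, 1 time before Il13, at 80 bases, and 1 time before Il5, at 71 bases, against 53.6% of all windows with a match. A second annotated Il4 start, inside the gene, had 3 GATA matches and 0 GGAAA matches. TTC and GAA with 4 bases between them, the spacing that STAT6 binds, was found before Il4 at 167 bases, as TTCACAGGAA, which overlaps the GGAAA at 161 bases. It was absent from the second Il4 window and from the windows of the other 5 genes, and 5.85% of all windows hold it. TGANTCA, the core that AP-1 factors bind, was in none of the windows of the 6 genes, against 6.75% of all windows. A match is a description of letters, and binding was not measured.

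Around the 6 genes, 8 lists of Th2 pathway genes held 89 other genes, of which 60 reached 1 FPKM. Of these, 4 were higher and 4 lower by 1.5-fold or more, which is 13.3% past 1.5-fold against 7.9% of all genes tested. Their median log2 ratio was 0.03, against −0.03 over all genes tested. The genes past 1.5-fold were spread over 5 lists and moved in both directions. The lists were chosen with earlier results of these data known, so 13.3% beside 7.9% is no test of them.

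In the receptor and STAT6 signalling list, 0 of 13 measured genes were past 1.5-fold higher and 0 lower. The chains of the IL-4 receptor were abundant in both libraries: Il4ra was at 205 and 210 FPKM (log2 0.03) and Il2rg, the common γ chain, at 463 and 527 FPKM (log2 0.19). Il13ra1, the chain that lets other cells sense IL-13, was at 0.40 and 0.10 FPKM. Of the kinases, Jak1 and Jak3 had log2 ratios of −0.07 and 0.43. Socs1, an inhibitor of Janus kinases that many cytokines induce, was at 158 and 238 FPKM and, at 1.499-fold higher, just under the threshold.

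Among receptors that mark or serve Th2 cells, 1 of 7 was higher and 1 lower. Ccr8, a chemokine receptor of Th2 and regulatory T cells, was at 5.64 and 16.6 FPKM, from 125 and 362 reads, with a read ratio of 2.94 (interval 2.40 to 3.64). Il7r, a receptor of naive and memory T cells, was 1.79-fold lower, at 106 and 58.7 FPKM. Crlf2, which pairs with it to bind TSLP, was at 58.2 and 71.5 FPKM, and Ccr4, a chemokine receptor of Th2 cells, at 31.1 and 32.6 FPKM. Il1rl1, the IL-33 receptor ST2, was at 1.07 and 1.65 FPKM, from 105 and 158 reads (ratio 1.53, interval 1.19 to 1.98). Il17rb, the IL-25 receptor chain, stayed under 1 FPKM, at 9 and 17 reads.

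Of 6 other type 2 cytokines and ligands with at least 1 FPKM, 1 was higher. Ccl22, a ligand of Ccr4, was at 1.02 and 6.25 FPKM, from 36 and 216 reads. Il24 was at 93.3 and 130 FPKM and Il10 at 84.1 and 57.6 FPKM, both within 1.5-fold. Il9, the cytokine of Th9 cells, was at 1.11 and 0.41 FPKM, from 11 and 4 reads with an interval from 0.09 to 1.25. Il3, Il31 and Il33 each had 4 reads or fewer in each library.

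Factors that promote Th2 genes differed little, with 0 of 16 past 1.5-fold in either direction and a list median of 0.01. Satb1, a chromatin organiser, was at 476 and 560 FPKM and Junb, an AP-1 factor of Th2 cells, at 502 and 521 FPKM. Irf4 and Maf, which activate Il4, had log2 ratios of 0.51 and 0.48. Nfil3 had the lowest, −0.47. Gfi1, which supports the growth of Th2 cells, was at 17.4 and 17.7 FPKM.

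Of 12 factors that oppose Gata3 or the Th2 genes, 2 were lower and 1 was higher. Tbx21 was 1.68-fold lower, from 465 and 252 reads (read ratio 0.55, interval 0.47 to 0.64), and Bcl6, a repressor in follicular helper cells, was 1.85-fold lower, at 3.30 and 1.33 FPKM. Foxp3, the regulatory T cell factor, was 2.35-fold higher, at 6.08 and 15.6 FPKM, and its transcripts share sequence with the neighbouring Flicr. Runx3 was at 137 and 144 FPKM, Ndfip1, an adaptor of the ligase Itch, at 295 and 259 FPKM, and Zfpm1, which encodes the GATA partner FOG-1, at 3.87 and 5.40 FPKM.

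In the prostaglandin D2 list, 1 of 6 genes with values reached 1 FPKM. That gene was Akr1c18, a steroid dehydrogenase of the aldo-keto reductase family, at 0.09 FPKM in the wild type against 3.03 FPKM in the knockout, from 2 and 67 reads (read ratio 34.1, interval 9.07 to 287). Like Il4, it reached the minimum only through the knockout library, so its place among the 4 higher pathway genes was fixed by that minimum. Hpgds, the haematopoietic prostaglandin D synthase, was at 0.65 and 0.70 FPKM, from 41 and 40 reads, and Ptgs2, which encodes cyclooxygenase-2, at 0.33 and 0.91 FPKM. Ptgdr, the other prostaglandin D2 receptor, had 5 and 9 reads. Both receptors were therefore near the limit of detection.

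Within the GATA family, Gata3 was the most abundant, followed by Gata1 at 2.82 and 2.67 FPKM, from 106 and 98 reads, whereas Gata2 was at 0.49 and 0.29 FPKM. Among the other STAT genes, Stat5a and Stat5b, which IL-2 activates, had log2 ratios of 0.10 and −0.02.

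**Figure D4:**
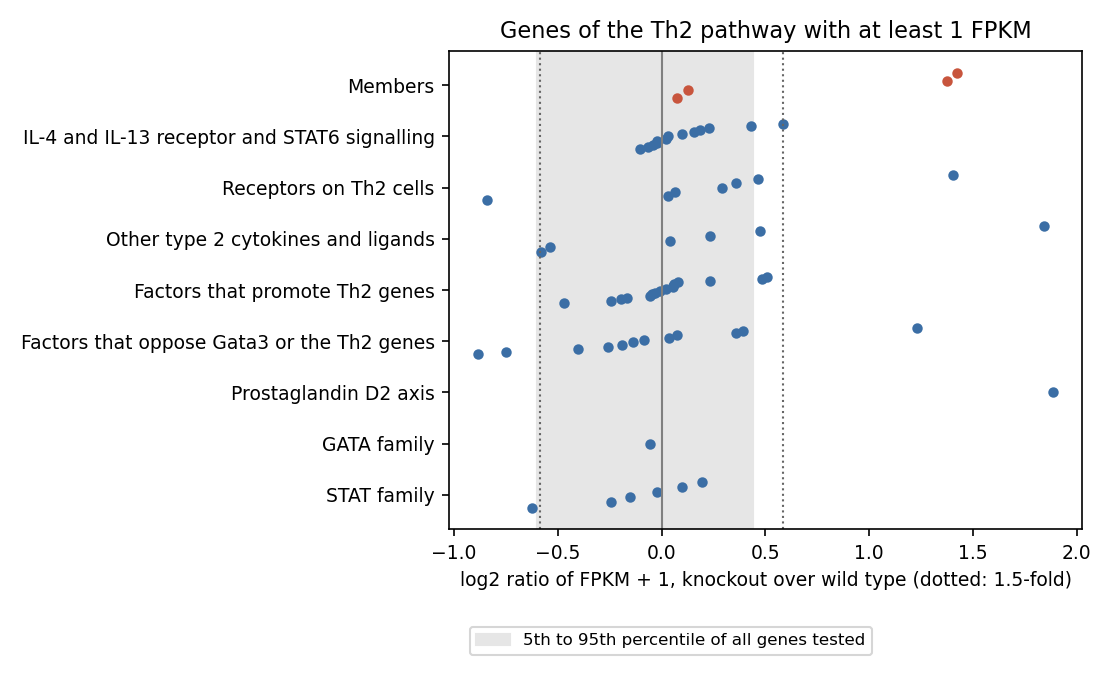
Log2 ratio of knockout to wild type (FPKM + 1) for each gene with at least 1 FPKM in the 6 Th2 genes (members, top) and in the 8 pathway lists; dotted lines mark 1.5-fold and the grey band the 5th to 95th percentile of all genes tested (−0.60 to 0.44). Il4 and Il13 lie right of the band, and 8 list genes lie outside the dotted lines.

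Other cells that can make IL-4 or IL-13 were looked for by their markers. In bulk RNA, more cells of a type and more RNA per cell cannot be told apart. Basophil and mast cell markers summed to 15.97 FPKM in the wild type against 8.19 FPKM in the knockout, with 0 of 4 measured genes higher and 2 lower, Cpa3 and Kit. The basophil protease gene Prss34 and the IgE receptor gene Fcer1a had 12 reads each in the wild type and 0 in the knockout. The 4 eosinophil markers with values summed to 2.48 and 1.29 FPKM, with 0 of 4 at 1 FPKM. Markers of group 2 innate lymphoid cells summed to 9.68 and 9.23 FPKM, and of the 3 measured, Arg1 was higher (0.32 and 2.21 FPKM), Kit was lower and Il1rl1 lay within 1.5-fold. Kit, also in the basophil and mast cell list, made up 7.20 and 4.40 FPKM of these sums, so their near equality rests on that gene. Under 1 FPKM, Klrg1 had 16 and 4 reads, Il17rb 9 and 17, and Areg 6 and 9. The list for NKT and innate-like T cells summed to 2.28 and 1.17 FPKM, with Klrb1c lower (1.03 and 0.13 FPKM) and 0 of 2 measured genes higher. The other measured gene, Cd1d1 (1.03 and 0.51 FPKM), encodes a molecule that NKT cells recognise and is not a marker of them. Klrb1c is shared with NK cells, so the sum does not measure NKT cells. Zbtb16, of the same list and under 1 FPKM, ran the other way, at 33 and 78 reads (ratio 2.40, interval 1.58 to 3.73). The part of these cells in the Il4 and Il13 values was not tested. Arg1 reached the minimum of 1 FPKM only through the knockout library, and Cpa3, Klrb1c and Cd1d1 only through the wild-type library. The direction of these genes was therefore fixed by that minimum. Across all genes tested, 2.71% were higher and 5.19% lower by 1.5-fold or more.

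Macrophage and dendritic cell markers moved the same way as Il4 and Il13, summing to 36.3 and 84.8 FPKM, with 5 of 6 measured genes higher, none at 0 and Mmp12 at 0.52 and 7.72 FPKM. Most of both sums came from antigen presentation genes that B cells share. These were Cd74 (15.4 and 39.4 FPKM), H2-Ab1 (10.6 and 21.6 FPKM) and H2-Aa (4.06 and 7.16 FPKM). Under 1 FPKM, Itgax had 63 and 70 reads (ratio 1.13, interval 0.79 to 1.61), Adgre1 4 and 5, and Csf1r 7 and 20. Mmp12 reached the minimum of 1 FPKM only through the knockout library, so its direction, though not its passing 1.5-fold, was fixed by that minimum. The shares over all genes tested were 2.71% higher and 5.19% lower. B cell markers summed to 4.53 and 8.16 FPKM, with 1 of 3 measured genes higher. The part of these cells in the Il4, Il13 and Ccl22 values was not tested. CD8 T and NK cell markers summed to 450 and 227 FPKM, with 6 of 6 measured genes lower, and the Th17 markers to 1563 and 627 FPKM, with 4 of 5 lower. The part of CD8 T and NK cells in the Il4, Il13, Gata3 and Tbx21 values was not tested. CD4 and pan-T markers summed to 2991 and 3345 FPKM, with 0 of 8 past 1.5-fold.

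**Figure D5:**
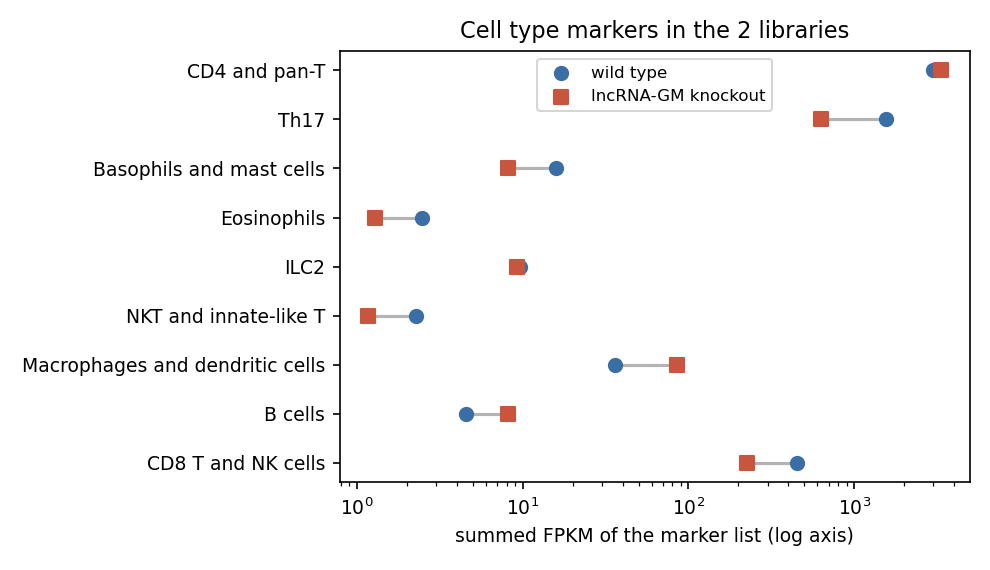
Summed FPKM (log axis) of the genes listed for each cell type in the wild-type (circles) and knockout (squares) library. Basophil and mast cell markers run from 15.97 to 8.19 FPKM, those of macrophages and dendritic cells run from 36.3 to 84.8 FPKM, and CD4 and pan-T markers stand at 2991 and 3345 FPKM.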

How the data were processed

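RNA of 1 wild-type and 1 lncRNA-GM knockout Th17 culture was sequenced, per the labels' protocols, by Illumina HiSeq. Bowtie2, RSEM and GRCm38.p6 are named, without versions, per the submitters' processing notes. The authors deposited expression values that were read as FPKM, computed before deposit from mapped fragments and transcript length; the header names no unit, and the columns sum to 517664 and 514343. The authors' deposited log2 ratio was recomputed within 0.001 for all 17002 rows, with 0 set to 0.01. The authors' deposited p-value compares 1 library with 1 library, and their deposited FDR was treated as a score and not used.

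Rows were matched by gene ID to the RefSeq table of GRCm38.p6 (16878 matched), and 24 symbols turned into dates were restored. Log2 ratios are of FPKM + 1, and a gene was tested if 1 library or more had 1 FPKM. Where a gene is listed at 0 in 1 library, its deposited p-value follows a 2-sided Poisson comparison of 2 libraries (after Audic and Claverie) with 50.4% of reads in the wild type, and 1724 of 1730 such p-values were matched within 6e-07. Whole reads were solved from it. They were unique for 5 of the 6 genes, and for Stat6 the nearest of 130 solutions was taken. For other named genes with several solutions the nearest was also taken. For genes that were abundant or had no solution, reads came from GENCODE M21 transcript length. Depth is the median over single-transcript genes . The read solver and the fold rule were run on simulated data, with more reads per FPKM than in these libraries. The levels simulated leave out those of Il4, Il5, Ptgdr2, Stat6 and wild-type Il13, and the outcome is not given here. Copies were searched with BLAST 2.17.0 (95% identity over 50% of a transcript). Scripts ran in Python 3.11.15 with matplotlib 3.10.9, scipy 1.17.1, pandas 2.3.3 and numpy 2.4.6.

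The genes and lists were chosen with earlier results of these data known. List genes past 1.5-fold and the 2 most abundant of each list were named, with every gene with values within 250 kb of Il4, Il5 or Il13; the others were chosen after their values were seen. Likeness of pattern cannot be ranked over 2 libraries. Alternatives were other pseudocounts, minimums, folds, centring and reads. Not every gene named by that rule is reported here.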

Additional observations from a re-analysis of the deposited data

How the results depend on the processing

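The log2 ratios of Gata3, Stat6, Il5 and Ptgdr2 moved within their counting intervals under pseudocounts of 0.1 and 5 FPKM, centring on the median and, where run, reads with no pseudocount. The log2 ratio of Il4 was 1.37, 4.08 with a pseudocount of 0.1 FPKM and 0.40, under 1.5-fold, with 5 FPKM; reads give it no ratio, only a lower bound. That of Il13 was 1.42, 0.74 with a pseudocount of 5 FPKM and 1.88 with reads. The number of the 6 genes at least 1.5-fold higher was 2, and 1 (Il13) with a pseudocount of 5 FPKM or with at least 5 FPKM in 1 library. Pathway genes lower by 1.5-fold numbered 4, and 2 with a pseudocount of 5 FPKM and 0 at a fold of 2. Of all genes tested, 1.15% were higher and 2.07% lower with a pseudocount of 5 FPKM, and 1.01% and 1.96% at a fold of 2.

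In single lists, 124 values stayed close and 18 moved. The 124 include the list medians at a fold of 2, which could not move because the fold does not enter a median. With a pseudocount of 0.1 FPKM, signalling genes higher went from 0 to 1 (also when centred), receptors higher from 1 to 2 and other cytokines lower from 0 to 1. With no minimum, other cytokines higher went from 1 to 2. Opposing factors lower went from 2 to 0 with a pseudocount of 5 FPKM or a fold of 2, and to 1 with at least 5 FPKM. At a fold of 2, receptors lower and the lower genes of 1 further list went from 1 to 0; with at least 5 FPKM, prostaglandin genes higher went from 1 to 0. The prostaglandin median of 1.89 became 4.04 and 0.66 with pseudocounts of 0.1 and 5 FPKM and 0.07 with no minimum. The receptor median of 0.29 became 0.13 with a pseudocount of 5 FPKM and 0.18 with at least 5 FPKM, and that of other cytokines went from 0.14 to 0.24 with a pseudocount of 0.1 FPKM and to 0.26 with at least 5 FPKM. The cause was not tested. No paired analysis was possible because each genotype has 1 library.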

Other observations

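Some genes under 1 FPKM in both libraries had read intervals that lie apart from 1; they were chosen after their values were seen. Il9r, the IL-9 receptor, had 36 reads in the wild type and 78 in the knockout (ratio 2.20, interval 1.47 to 3.37). Ptgs2 had 29 and 78 reads (ratio 2.73, interval 1.76 to 4.34). Ccr3, a chemokine receptor of eosinophils, had 28 and 5 reads (ratio 0.18, interval 0.05 to 0.48), and Il13ra1 had 29 and 7 reads (ratio 0.25, interval 0.09 to 0.57). Csf2rb, the β chain shared by the receptors for IL-3, IL-5 and GM-CSF, reached 1 FPKM and had 98 and 163 reads (ratio 1.69, interval 1.31 to 2.19), while Il5ra, the chain specific to IL-5, had 68 and 65 reads.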
